A study of Mus musculus with 12 samples.

Results

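Transcript levels of 8 protein arginine methyltransferase genes (Prmt1, Prmt2, Prmt3, Carm1, Prmt5, Prmt6, Prmt7 and Prmt8), of the PRMT5 partner gene Wdr77 and of Jmjd6 were followed in mouse embryonic stem cells (ESCs). The 10 genes were chosen by name from the 26061 in the gene table, and all 10 passed the filter on low values that left 14185 genes for testing. All groups were Tet2 KO ESCs, in which both the knockout and an shRNA against Setdb1 (shSetdb1) were shared, and Tet2 had been put back by a PiggyBac transposon carrying either WT TET2 or a catalytically inactive mutant. Each rescue was grown without feeders either in 2i medium (DMEM F-12 and neurobasal with N2, B27, LIF, PD0325901 and CHIR99021), called naïve, or in DMEM with 15% fetal bovine serum and LIF, called primed. Each of the 4 groups had 3 poly(A) RNA-seq libraries, with 8066662 to 21335933 gene reads per library. Control libraries without the Setdb1 shRNA were not analysed here, and the number of clones behind each rescue line is not given in the sources used here. Nothing in the labels says that the 3 libraries of a group came from separate cultures, so p-values measure the spread between these libraries, which may be technical.

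Protein arginine methyltransferases transfer methyl groups from S-adenosylmethionine to arginine side chains of histones, splicing factors and other RNA-binding proteins. Type I enzymes make asymmetric dimethylarginine, PRMT5 with its WD-repeat partner WDR77 (MEP50) makes symmetric dimethylarginine, and PRMT7 stops at monomethylarginine. PRMT5 is known for its role in pluripotent and germ cells, where symmetric dimethylation of histone H4 arginine has been linked to the silencing of retroelements. JMJD6 is an oxygenase reported to hydroxylate lysines and, in some accounts, to remove methyl groups from arginine.

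The medium differences were largest for Prmt2 and Prmt8, the members with the fewest reads. In the WT rescue, 5 of the 10 genes passed limma's test at an adjusted p under 0.05 (Benjamini-Hochberg over all 14185 genes), of which Prmt2, Prmt8, Prmt6 and Jmjd6 were lower in naïve ESCs and Prmt7 was higher. With mutant TET2 7 passed, the same 5 genes in the same directions together with Prmt1 and Wdr77, both lower in naïve ESCs. Prmt3, Carm1 and Prmt5 passed in neither rescue. No member passed in either comparison of WT with mutant TET2. In bulk RNA, fewer cells of a type and less RNA per cell cannot be told apart.

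The medium changed much of the transcriptome, and the member counts are read against that background. Of all tested genes, 35.9% passed in the WT rescue, 17.3% lower and 18.6% higher in naïve ESCs, and among the members 4 were lower and 1 higher. In the mutant rescue 35.2% of all genes passed, 16.9% lower and 18.3% higher, and among the members 6 were lower and 1 higher. The median member difference, naïve minus primed on the log2 scale of the deposited values, was -0.33 in the WT rescue, against 0.01 over all tested genes. With mutant TET2 it was -0.60, against -0.01 over all tested genes. All 3 naïve libraries lay on one side of all 3 primed libraries for 8 members in the WT rescue, against 50% of all tested genes, and for 6 members in the mutant rescue, against 43.5%. Beyond the called genes these were Prmt1, Carm1 and Prmt5 in the WT rescue, each lower in naïve ESCs, while in the mutant rescue the called Prmt1 overlapped. With 10 genes these shares exceed the background by a few genes, and nothing is read from them about the genes as a group.

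**Figure D1:**
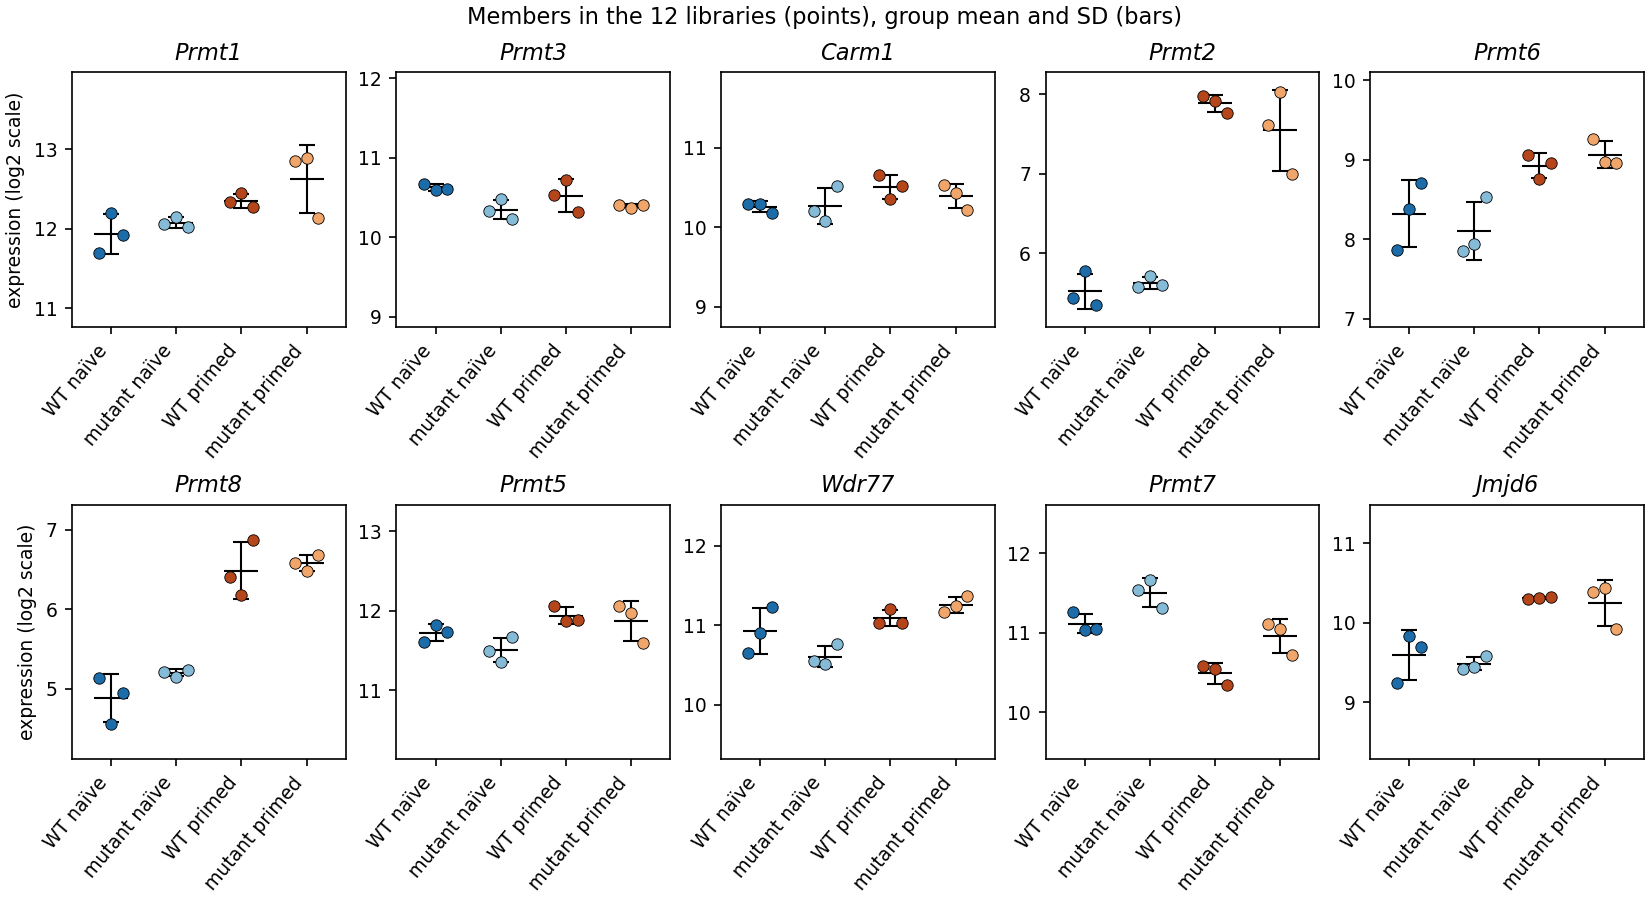
Expression of each member on the deposited log2 scale (vertical axes) in the 12 libraries (points), with the group mean and SD (bars, n = 3). Naïve and primed libraries of both rescues were fully separated for Prmt2, Prmt6, Prmt8 and Jmjd6, and Prmt7 was higher in naïve than in primed ESCs of the same rescue.

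**Figure D2:**
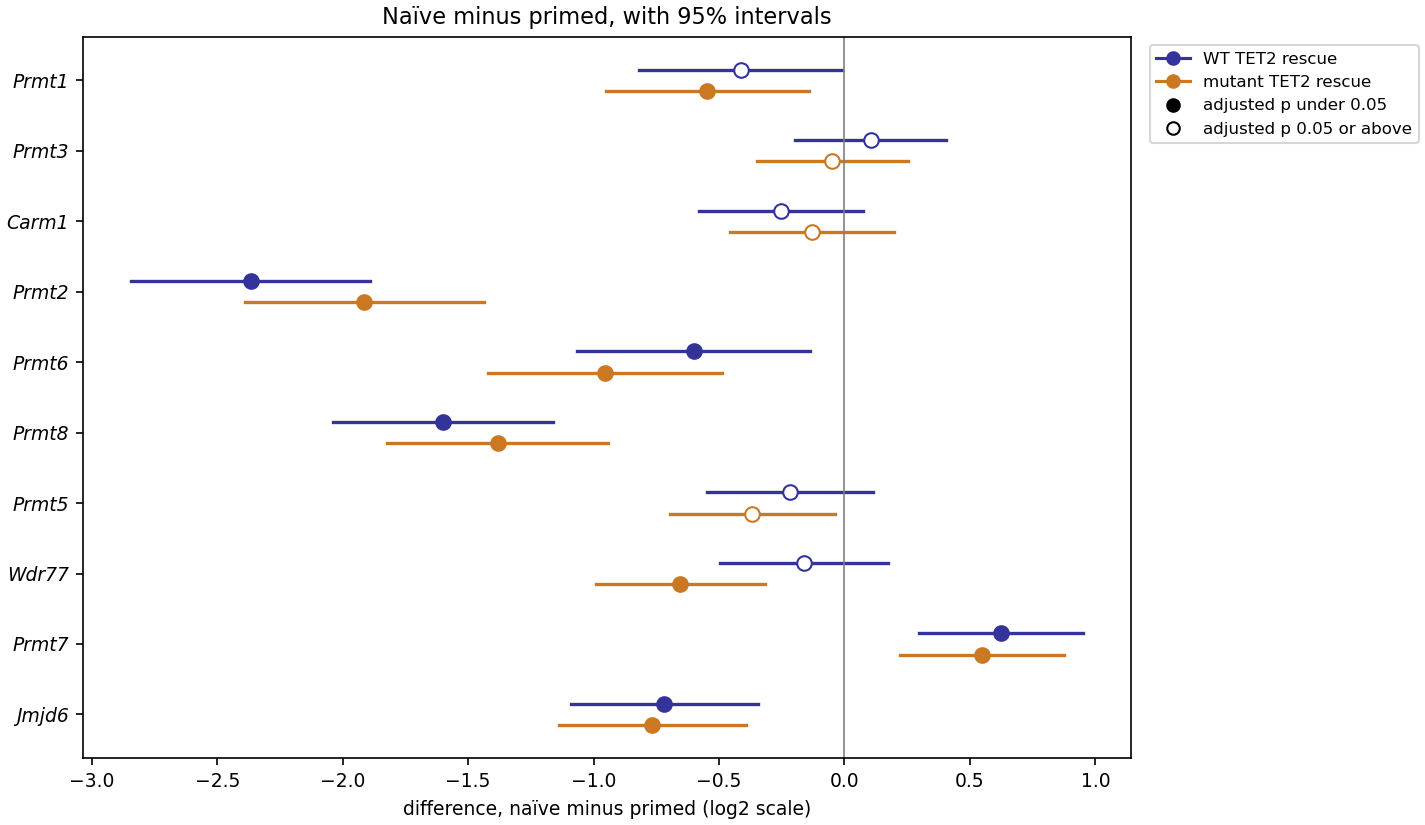
Difference between naïve and primed ESCs on the log2 scale (horizontal axis) with 95% intervals from limma, for the WT TET2 rescue (blue) and the mutant (orange), with filled points for an adjusted p under 0.05. Prmt2 and Prmt8 lay farthest below 0, and Prmt7 was the member above 0 with filled points in both rescues.

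The stretches just upstream of the RefSeq start are shown for 4 genes called in both rescues, 3 that were lower in naïve ESCs and 1 that was higher, because CG dinucleotides, the sites of DNA methylation, differ in density between them. The sequences are from RefSeq (GRCm38.p6), matched exactly and at 1 place to the mm9 genome, and CG is in capitals. They are Prmt2 (chr10:75700611-75700860, minus strand), Prmt6 (chr3:110053918-110054167, minus strand), Jmjd6 (chr11:116704764-116705013, minus strand) and the part of the Prmt7 window that lies before the annotated gene (chr8:108734704-108734835, plus strand).
Prmt2: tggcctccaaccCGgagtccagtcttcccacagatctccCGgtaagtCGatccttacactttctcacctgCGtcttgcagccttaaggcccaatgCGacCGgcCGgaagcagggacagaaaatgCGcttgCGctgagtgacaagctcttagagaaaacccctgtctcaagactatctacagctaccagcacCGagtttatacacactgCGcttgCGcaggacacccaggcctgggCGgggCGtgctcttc
Prmt6: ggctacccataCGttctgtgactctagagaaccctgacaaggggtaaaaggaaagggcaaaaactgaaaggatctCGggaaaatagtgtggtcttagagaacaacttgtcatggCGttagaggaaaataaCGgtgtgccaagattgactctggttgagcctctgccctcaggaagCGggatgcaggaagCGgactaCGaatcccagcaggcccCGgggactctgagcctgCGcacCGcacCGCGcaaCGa
Jmjd6: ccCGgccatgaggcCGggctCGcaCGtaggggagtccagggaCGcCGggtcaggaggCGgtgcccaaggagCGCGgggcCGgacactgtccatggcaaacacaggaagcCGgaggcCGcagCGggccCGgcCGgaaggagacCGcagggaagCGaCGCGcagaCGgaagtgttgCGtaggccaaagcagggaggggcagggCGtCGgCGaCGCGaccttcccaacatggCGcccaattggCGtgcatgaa
Prmt7: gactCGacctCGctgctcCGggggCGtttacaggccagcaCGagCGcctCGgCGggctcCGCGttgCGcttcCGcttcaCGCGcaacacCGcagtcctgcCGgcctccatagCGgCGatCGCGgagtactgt

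Of the 10 genes, 9 had such an upstream window of 250 bases, and Carm1 had none. Prmt8 held 37 CG and Prmt7 35, numbers that 2.12% and 2.82% of 27025 mouse promoter windows of the same length reached. Jmjd6 held 28 (reached by 7.26%), Prmt2 14 (29.6%) and Prmt6 13 (31.8%), and the median over all windows was 6. Of the rest, Wdr77 held 19, Prmt3 17, and Prmt1 and Prmt5 13 each. The densest windows thus belonged both to a gene that was lower in naïve ESCs, Prmt8, and to the one that was higher, Prmt7. Of the Prmt7 window, 118 bases lay inside the annotated gene, and the 132 bases before it held 20 CG. The windows of Prmt2, Prmt6 and Jmjd6 lay wholly before their genes, so the counts are not of like stretches. The letters TATAAA, searched on both strands, were found in the window of Prmt2 and of no other member, and 13.0% of all windows held them. The whole Prmt8 window lay inside the gene as annotated in the mm9 models used here, so its letters are not printed.

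Prmt2, a type I enzyme known as a coactivator of nuclear receptors (chromosome 10, 75669967 to 75700610 of mm9, minus strand), had the largest difference of the members. In the WT rescue its normalised read counts were 19.9, 30.2 and 17.5 in the naïve libraries and 225.1, 213.4 and 190.8 in the primed libraries. In the mutant rescue they were 23.7, 28.2 and 24.7 in naïve and 168.0, 232.6 and 101.8 in primed ESCs. No naïve library of either rescue reached the lowest primed library, mutant replicate 3. The group means were 9.31-fold apart in the WT rescue and 6.56-fold apart in the mutant rescue, higher in primed ESCs. On the log2 scale Prmt2 fell by 2.37 in naïve ESCs (SE 0.23, limma adjusted p = 1.05e-06) in the WT rescue and by 1.91 (SE 0.23, limma adjusted p = 9.35e-06) in the mutant rescue. The variance-stabilised scale shrinks differences of genes with few reads, and limma-voom on the recovered reads gave log2 differences of -3.20 (SE 0.36) and -2.63 (SE 0.33).

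Prmt8, the membrane-anchored type I enzyme best known from brain (chromosome 6, 127639029 to 127719490, minus strand), was the lowest member and followed the same direction. Its raw reads were 11, 4 and 9 in the WT naïve libraries and 17, 12 and 26 in the mutant naïve libraries. In primed ESCs they were 40, 39 and 172 with WT TET2 and 51, 59 and 72 with the mutant. Scaled for depth, the mean was 8.68 ± 4.51 (SD, n = 3) normalised reads in naïve and 65.7 ± 22.8 in primed ESCs of the WT rescue, a 7.57-fold difference. In the mutant rescue the means were 14.1 ± 0.97 and 70.0 ± 6.39 (SD, n = 3), a 4.96-fold difference. The ranges of the naïve and primed libraries did not overlap. On the log2 scale the difference was -1.60 (SE 0.21, limma adjusted p = 2.32e-05) in the WT rescue and -1.38 (SE 0.21, limma adjusted p = 0.000102) in the mutant rescue. With as few as 4 reads in a library, counting error limits the size of these folds, and limma-voom placed the log2 differences at -3.05 (SE 0.44) and -2.27 (SE 0.37).

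Prmt6, the main writer of asymmetric dimethylation at histone H3 arginine 2 (chromosome 3, 110049027 to 110053916, minus strand), was lower in naïve ESCs by a smaller amount. Its log2 values were 7.87, 8.39 and 8.71 in WT naïve libraries and 9.06, 8.75 and 8.96 in WT primed libraries. With mutant TET2 they were 7.86, 7.94 and 8.53 in naïve and 9.26, 8.98 and 8.95 in primed ESCs. The naïve libraries spread more widely than the primed ones, and the highest naïve library of the WT rescue came within 0.04 of the lowest primed library. The difference was -0.60 (SE 0.22, limma adjusted p = 0.0424) in the WT rescue and -0.95 (SE 0.22, limma adjusted p = 0.00331) in the mutant rescue, or 1.52-fold and 2.00-fold in normalised reads. In the WT rescue the call was lost without naïve replicate 1 (difference -0.38, limma adjusted p = 0.196), naïve replicate 2 (0.0720), primed replicate 1 (0.141) or primed replicate 3 (0.109), and also with a replicate block (0.0521) or with no filter on low values (0.0527).

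Prmt1, the enzyme that makes most asymmetric dimethylarginine in mammalian cells (chromosome 7, 52231359 to 52241862, minus strand), was the highest member in every group. Its log2 values were 11.70, 12.20 and 11.92 in WT naïve and 12.33, 12.45 and 12.27 in WT primed libraries, without overlap. The difference of -0.41 (SE 0.19) did not pass (limma adjusted p = 0.103). With mutant TET2 the values were 12.06, 12.15 and 12.02 in naïve and 12.85, 12.88 and 12.13 in primed ESCs, so that primed replicate 3 lay among the naïve ones. The difference of -0.55 (SE 0.19) passed at a limma adjusted p of 0.0352. That call was lost when any one of naïve replicates 1 to 3 (adjusted p 0.0634 to 0.0875) or primed replicates 1 (0.126) or 2 (0.164) was left out. 

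Prmt3, a cytosolic enzyme that methylates a ribosomal protein, and Carm1, a coactivator that methylates histone H3 and splicing factors, showed little difference between media. Prmt3 lay between 10.23 and 10.72 in all 12 libraries, and its differences were 0.11 (95% interval -0.20 to 0.41) in the WT rescue and -0.05 (-0.35 to 0.25) in the mutant rescue. Carm1 lay between 10.08 and 10.66, with differences of -0.25 (95% interval -0.58 to 0.07) and -0.13 (-0.46 to 0.20). These intervals leave room for changes of up to 0.58 on the log2 scale. In the mm9 gene models, 18.02% of the exon bases of Carm1 overlap Yipf2 on the other strand. The libraries kept no strand, so reads of both genes in those bases cannot be told apart.

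Of the PRMT5 complex, Prmt5 passed between media in neither rescue and Wdr77 fell in naïve ESCs of the mutant rescue. Prmt5 (chromosome 14, 55126024 to 55136362, minus strand) was at 11.72 ± 0.11 (SD, n = 3) in WT naïve and 11.94 ± 0.11 in WT primed ESCs, a difference of -0.22 (95% interval -0.55 to 0.11, limma adjusted p = 0.292). In the mutant rescue the difference was -0.37 (95% interval -0.70 to -0.04, limma adjusted p = 0.0774), and it passed without primed replicate 3 (-0.51, adjusted p = 0.0147). Wdr77 (chromosome 3, 105762287 to 105787518, plus strand) was at 10.65, 10.90 and 11.23 in WT naïve and at 11.03, 11.20 and 11.03 in WT primed libraries, which overlapped. With mutant TET2 it was at 10.55, 10.51 and 10.76 in naïve and at 11.17, 11.24 and 11.37 in primed libraries, which did not. The difference was -0.16 (SE 0.16, limma adjusted p = 0.455) in the WT rescue and -0.65 (SE 0.16, limma adjusted p = 0.00464) in the mutant rescue.

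The medium difference of Wdr77 differed between rescues by 0.49 (SE 0.22), which had an unadjusted p of 0.0422 and an adjusted p of 0.976 in limma, and it is therefore not shown to differ. On the variance-stabilised scale this contrast ranged among the other members from -0.45 for Prmt2 (SE 0.32) to 0.35 for Prmt6 (SE 0.31). By limma-voom it was -0.57 (SE 0.49) for Prmt2 and -0.78 (SE 0.58) for Prmt8. It was called for 0 of the 14185 genes (0%), with 489 genes at an unadjusted p under 0.05. Of the Wdr77 exon bases, 20.5% overlap Atp5f1 on the other strand or Ovgp1 on the same strand. Atp5f1, a subunit gene of ATP synthase, had 2981 to 4800 mean normalised reads across the groups, more than Wdr77 in each, and was higher in naïve ESCs by 0.54 (limma adjusted p = 0.0225) in the WT rescue, with a difference of 0.15 (0.521) in the mutant rescue. The part of Atp5f1 reads in the Wdr77 values was not tested.

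Prmt7, which makes monomethylarginine (chromosome 8, 108734836 to 108776694, plus strand), was the one member that rose in naïve ESCs. With WT TET2 its log2 values were 11.26, 11.04 and 11.05 in naïve and 10.58, 10.55 and 10.34 in primed libraries. With mutant TET2 they were 11.54, 11.66 and 11.32 in naïve and 11.11, 11.04 and 10.72 in primed libraries. Every naïve library lay above every primed library of the same rescue, while WT naïve and mutant primed libraries overlapped. The difference was 0.62 (SE 0.15, limma adjusted p = 0.00508) in the WT rescue and 0.55 (SE 0.15, limma adjusted p = 0.0117) in the mutant rescue, or 1.55-fold and 1.47-fold in normalised reads. In the mutant rescue it missed the threshold without naïve replicate 2 (0.47, adjusted p = 0.0583).

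Jmjd6 (chromosome 11, 116698746 to 116704763, minus strand) fell in naïve ESCs of both rescues. Its log2 values were 9.24, 9.83 and 9.70 in WT naïve and 10.29, 10.31 and 10.32 in WT primed libraries. With mutant TET2 they were 9.42, 9.45 and 9.58 in naïve and 10.39, 10.44 and 9.92 in primed libraries. The ranges were apart in both rescues, by 0.09 at the narrowest over the 12 libraries. The difference was -0.72 (SE 0.18, limma adjusted p = 0.00477) in the WT rescue and -0.77 (SE 0.18, limma adjusted p = 0.00325) in the mutant rescue, or 1.64-fold and 1.75-fold in normalised reads. It passed under each of the 16 alternatives run for each rescue.

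For any single member, an exact permutation test of 3 libraries against 3 cannot give a p below 0.1, which it gave wherever the groups did not overlap.

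Levels were compared between genes as RPKM, reads per kilobase of merged exons scaled to the total gene reads of the library. Prmt1 was highest in all groups, at 129.1 ± 22.1 (SD, n = 3) in WT naïve and 212.5 ± 55.3 in mutant primed ESCs, and Prmt5 was next, with group means of 61.3 to 84.6. Prmt3, Prmt7, Wdr77, Carm1 and Jmjd6 followed with means between 12.3 and 39.5. Prmt6 had means of 5.11 to 10.1, Prmt2 of 0.59 to 5.66 and Prmt8 of 0.26 to 2.14, and these took the last places in that order in every group. The places of Prmt1, Prmt5, Prmt6, Prmt2 and Prmt8 did not change with the longest transcript as the length.

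The order in the middle differed between the groups, both between media and between rescues. Prmt7 held place 3 in mutant naïve ESCs, at 39.5 ± 3.88 (SD, n = 3), and place 4 in WT naïve ESCs, at 29.7 ± 3.29. It held place 5 in mutant primed ESCs, at 26.8 ± 3.40, and place 7 in WT primed ESCs, at 19.8 ± 1.25. Neighbours whose libraries overlapped were Prmt7 with Wdr77 and Wdr77 with Carm1 in WT naïve ESCs, and Carm1 with Wdr77 in mutant naïve and WT primed ESCs. In mutant primed ESCs each neighbour from Prmt3 through Wdr77, Prmt7 and Carm1 to Jmjd6 overlapped the next. With the longest transcript as the length, Prmt7 held place 3 in all groups but WT primed ESCs, where it held place 5. In mutant primed ESCs that place was nearly tied with Wdr77 (47.33 against 47.31).

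**Figure D3:**
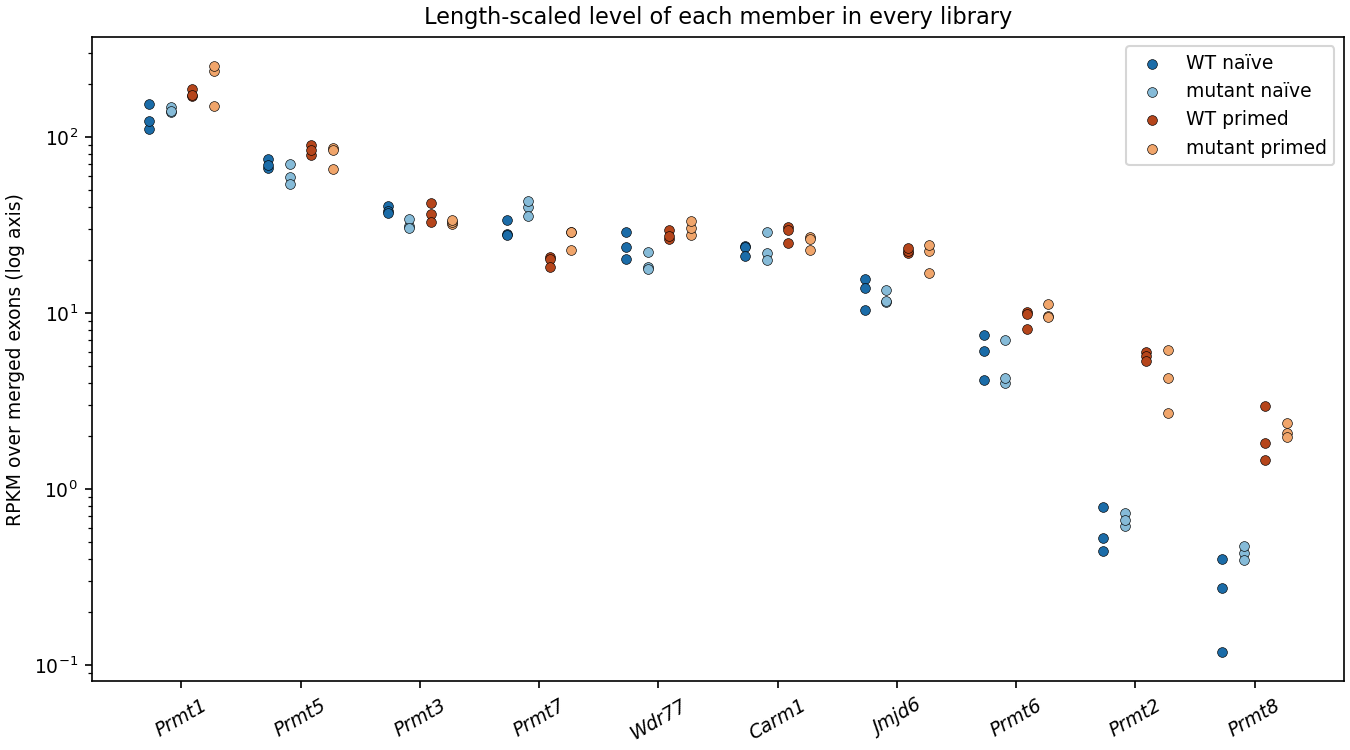
RPKM over merged exons (vertical log axis) of each member in the 12 libraries (points), coloured by group and ordered by the mean over groups. Prmt1 and Prmt5 lead in every group, and Prmt2 and Prmt8 lie lowest, with their naïve libraries well below their primed ones.

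No member passed the test between WT and mutant TET2. For Prmt5, Prmt7 and Jmjd6 the study had already compared these rescue lines and reported no control by TET2 activity. Among all tested genes, 0.0987% were called between the rescues in naïve ESCs and 0.254% in primed ESCs. The count of members was 0 in both, with 1 member, Prmt7, at an unadjusted p under 0.05 in each, and limma-voom called 0 as well. Over all genes, 1882 were under that unadjusted level in naïve and 2295 in primed ESCs. Tet2 mRNA itself, which includes the rescue construct, was higher with WT than with mutant TET2 by 2.16 (SE 0.34) in naïve and 1.84 in primed ESCs. Its naïve minus primed differences were -1.55 with WT and -1.87 with mutant TET2. These are mRNA values, and by western blot the study reported similar TET2 protein in the WT and mutant rescue lines. Setdb1 was read 114 to 585 times per library, and its differences between media were -0.45 (limma adjusted p = 0.167) in the WT rescue and -0.42 (0.201) in the mutant rescue. What these levels contribute to the members was not tested.

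In naïve ESCs, WT and mutant libraries did not overlap for Prmt3, Prmt7 and Prmt8, 3 of 10 members against 16.8% of all tested genes. Prmt3 was at 10.67, 10.60 and 10.61 with WT and at 10.34, 10.48 and 10.23 with mutant TET2, a difference of 0.28 (95% interval -0.02 to 0.58, limma adjusted p = 0.401). Prmt8 was at 5.14, 4.56 and 4.95 with WT and at 5.21, 5.15 and 5.24 with mutant TET2, a difference of -0.32 (95% interval -0.76 to 0.12, adjusted p = 0.504). By limma-voom it was -0.84 (SE 0.50, adjusted p = 0.458), and on the variance-stabilised scale it was -0.15 without WT naïve replicate 2, which had 4 reads. Prmt3, Prmt5, Prmt6 and Wdr77 were each higher with WT TET2 in all 3 same-numbered pairs, and Prmt7 and Prmt8 were each lower in all 3. For Prmt6 the pair numbered 1 was nearly tied (7.87 and 7.86). The share of all tested genes with such pairs was not computed, so nothing is read from this count. Wdr77 had a difference of 0.32 (95% interval -0.01 to 0.66, limma adjusted p = 0.391), and its ranges overlapped. Prmt7 had a 95% interval of -0.72 to -0.06 (adjusted p = 0.314). The intervals of Prmt1, Prmt2, Carm1, Prmt5, Prmt6 and Jmjd6 all held 0, the widest being -0.59 to 0.37 for Prmt2.

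In primed ESCs only Prmt7 had libraries that did not overlap, 1 of 10 members against 22.4% of all tested genes. Its 95% interval was -0.80 to -0.14, and its limma adjusted p was 0.205. Prmt2 was 0.34 higher with WT TET2 (95% interval -0.14 to 0.82, limma adjusted p = 0.463), and Prmt1 was at -0.27 (-0.68 to 0.13, adjusted p = 0.497). Mutant replicate 3 had the lowest value of the primed libraries for both Prmt1 and Prmt2, and over all tested genes it lay farthest from its group mean, with a root mean square deviation of 0.31 against 0.15 to 0.28 in the other libraries. Without that library, the Prmt2 difference was 0.07 and that of Prmt1 -0.52 (limma adjusted p = 0.879 and 0.1115). Without it and the others numbered 3, they were 0.13 and -0.48, and no member passed between the rescues in either medium.

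**Figure D4:**
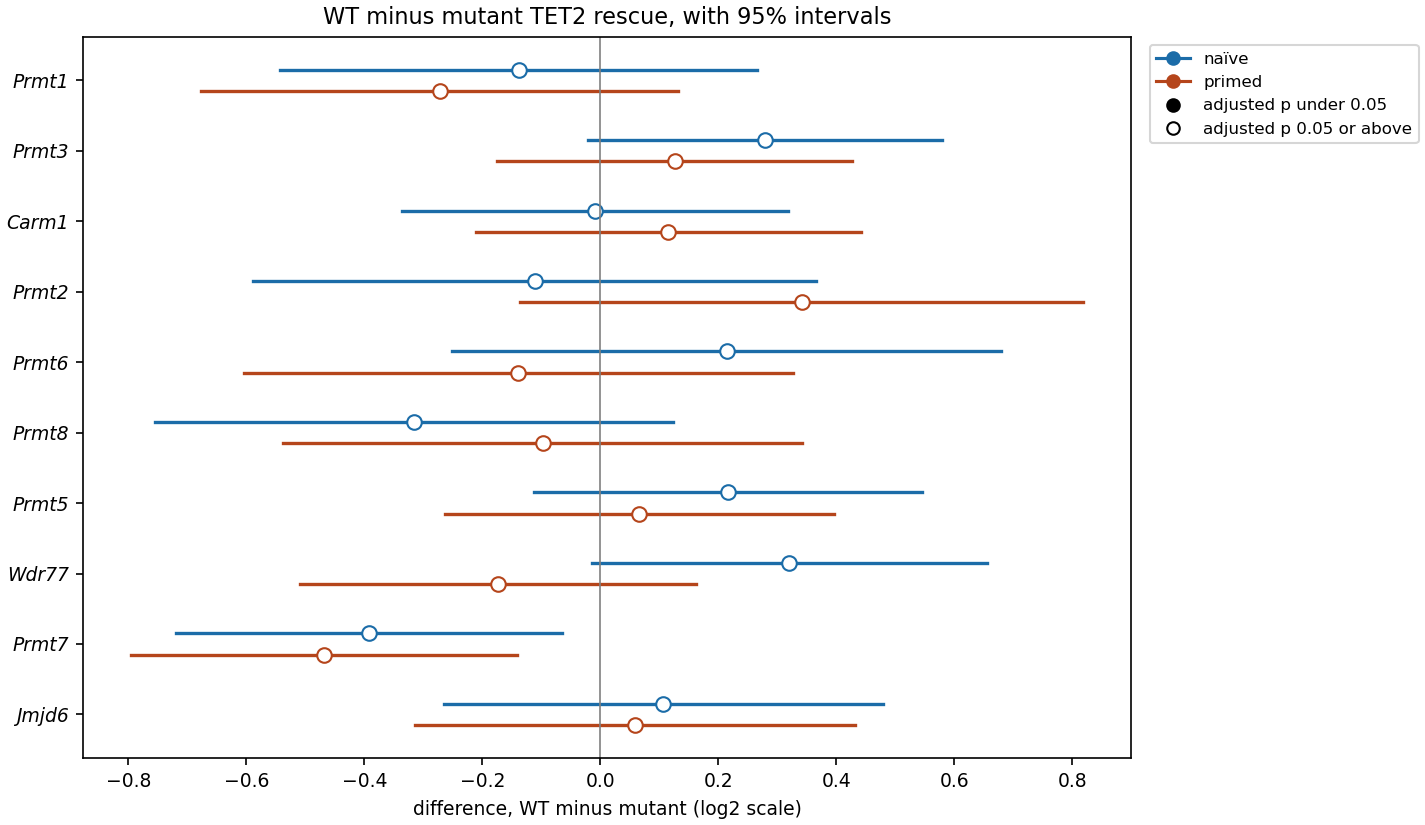
Difference between WT and mutant TET2 rescues on the log2 scale (horizontal axis) with 95% intervals from limma, in naïve (blue) and primed ESCs (red), where open points have an adjusted p of 0.05 or above. No point is filled, and the intervals of Prmt7 are the ones that lie wholly below 0 in both media.

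Genes around the arginine methylation pathway were counted in lists chosen by function, to be read beside the 35.9% and 35.2% of all tested genes called in the WT and the mutant rescue. Of the other arginine methyltransferase genes, Mettl23, which methylates histone H3 arginine 17, (listed under 1110005A03Rik) was higher in naïve ESCs by 1.00 (limma adjusted p = 0.00110) in the WT rescue and 0.83 (0.00447) in the mutant rescue. Prmt9 (listed as Prmt10), a symmetric writer on a splicing factor, was higher by 0.49 (limma adjusted p = 0.0302) and 0.54 (0.0199). With Ndufaf7, 2 of 3 passed as higher in the WT rescue and 3 of 3 in the mutant rescue. Over all tested genes, 18.6% and 18.3% were called higher, and with 3 genes nothing is read from these counts about the list. The list medians were 0.49 and 0.56.

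Among 9 genes of the S-adenosylmethionine cycle, which supplies the methyl donor, 4 were higher and 1 lower in naïve ESCs of the WT rescue, and 2 were higher and 1 lower in the mutant rescue. Mat2a, which encodes the catalytic subunit that makes S-adenosylmethionine, was the one lower, at -1.59 with WT (SE 0.44, limma adjusted p = 0.0106) and -2.49 with mutant TET2 (0.000460). Its naïve libraries were widely spread, with SDs of 1.26 with WT and 0.79 with mutant TET2, against 0.11 and 0.14 in primed ESCs. Ahcyl1 and Ahcyl2, relatives of the enzyme that clears S-adenosylhomocysteine, were higher by 0.63 and 0.65 in the WT rescue and by 0.53 and 0.65 in the mutant rescue. The list medians were 0.26 and 0.01, and the 3 of 9 called in the mutant rescue are near the share of all genes. In the WT rescue the 5 of 9 called lie above the 35.9% of all tested genes. The 4 called higher lie above the 18.6% of all tested genes called higher. With 9 genes nothing is read from these counts about the list.

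Of 8 partner genes of PRMT5 and PRMT1, 1 was higher and 1 lower in the WT rescue, and 1 was higher and 2 lower in the mutant rescue. Btg1, an antiproliferative partner of PRMT1, was higher by 0.56 (limma adjusted p = 0.0384) and 0.80 (0.00545). The list medians were -0.12 and -0.19, and the calls, 2 of 8 and 3 of 8, are near or below the share of all genes. Of 5 JMJD6 partner genes, 3 were lower in the WT rescue and 2 in the mutant rescue, with medians of -0.45 and -0.39. Over all tested genes, 17.3% and 16.9% were called lower, and with 5 genes nothing is read from these counts about the list. The bromodomain gene Brd2 differed by -0.70 (limma adjusted p = 0.00208) and -0.57 (0.00922), and the splicing factor gene U2af2 by -0.56 (0.0171) and -0.49 (0.0341).

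Of 17 genes of substrates of the enzymes, 3 were lower in the WT rescue and 5 in the mutant rescue, with none higher. These calls were fewer than the share of all genes called in either direction, and the 3 of 17 are near the 17.3% of all genes called lower in the WT rescue. In the mutant rescue the 5 of 17 lie above the 16.9% of all genes called lower, and nothing is read from this about the list. The medians were -0.17 and -0.23. The RNA-binding protein genes Sfpq and Khdrbs1 were among those that passed in both, with Sfpq at -0.95 (limma adjusted p = 0.010) and -1.20 (0.00224). Readers of methylarginine went both ways. Of 9 tested out of 12, 4 were higher and 1 lower in the WT rescue and 3 were higher and 1 lower in the mutant rescue, with medians of 0.29 and -0.06. Over all tested genes, 18.6% and 18.3% were called higher, and with 9 genes nothing is read from these counts about the readers. The Tudor domain genes Tdrd7 (1.30 and 0.89) and Tdrd12 (0.65 and 0.45) and Snd1 (0.48 and 0.78) were higher, and Tdrd5 was lower (-1.48 and -1.30), in each case in both rescues.

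Of 7 tested out of 8 genes that convert arginine to citrulline or break down free methylarginine, 4 were higher in the WT rescue and 5 in the mutant rescue, and none passed as lower. Over all tested genes, 18.6% and 18.3% were called higher, and with 7 genes nothing is read from these counts about the list. Ddah1 (0.32 and 0.09) and Padi2 (-0.20 and 0.34) passed in neither rescue. Ddah2, which hydrolyses free asymmetric dimethylarginine, was higher by 1.35 (limma adjusted p = 3.55e-05) in the WT rescue and 1.54 (1.01e-05) in the mutant rescue. The deiminase genes Padi4 (1.48 and 1.20) and Padi6 (1.15 and 1.12) were also higher. The primed means of Padi6, 4.14 with WT and 4.48 with mutant TET2, were less than 1 above the lowest value, 3.81. Padi6 passed the filter on low values only through its naïve libraries (means 5.29 and 5.60), so its calls are given as description. The counts above include it. The list medians were 0.59 and 0.80. None of the genes in these lists passed between WT and mutant TET2 in either medium.

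**Figure D5:**
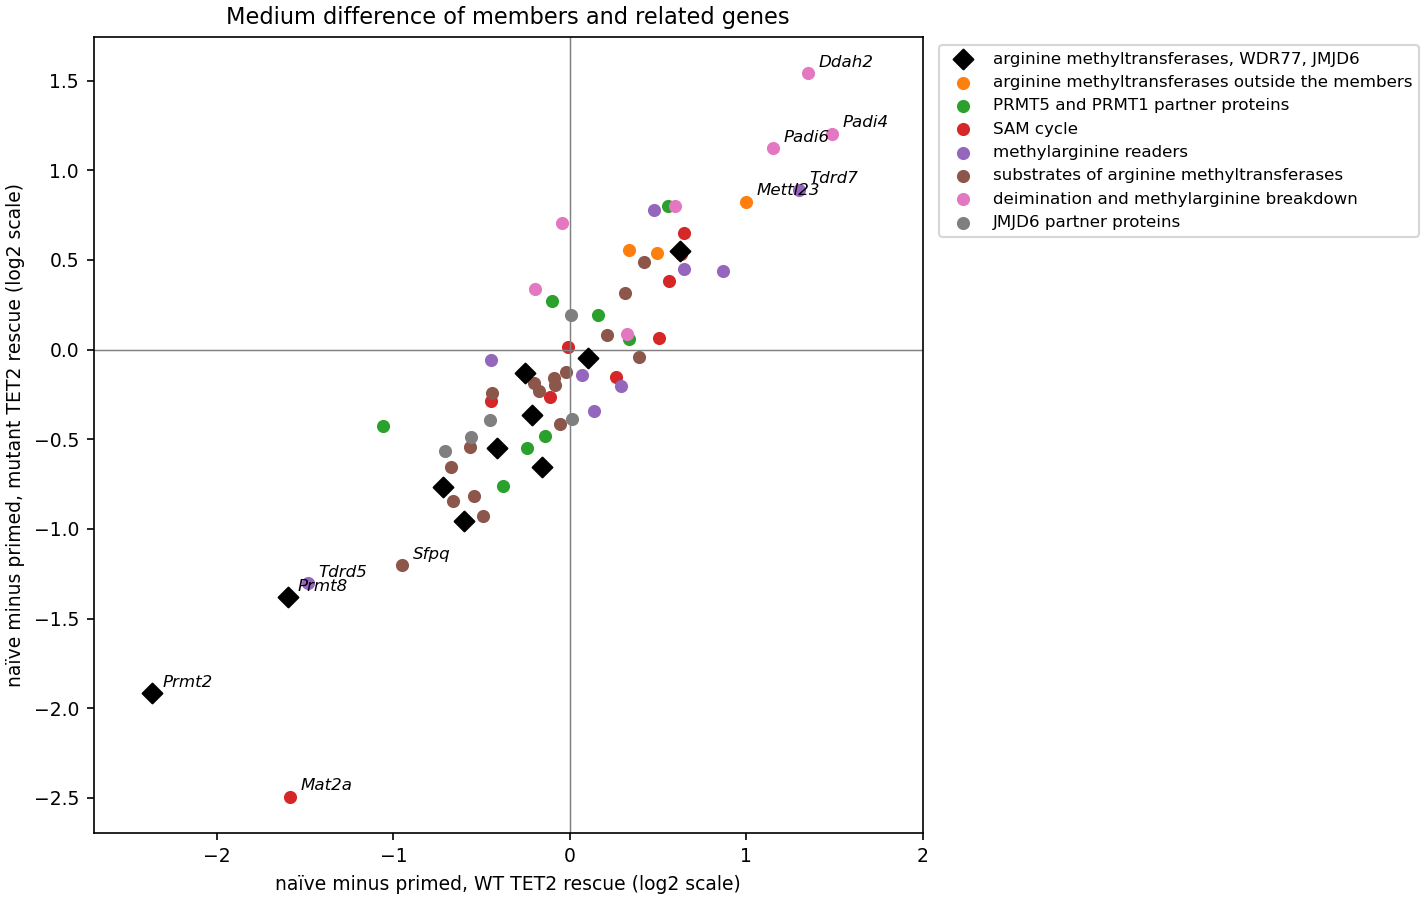
Difference between naïve and primed ESCs on the log2 scale in the WT rescue (horizontal axis) and in the mutant rescue (vertical axis) for the members (black diamonds) and the genes of 7 related lists (coloured points). Prmt2 and Prmt8 lie low on both axes near Tdrd5 and Mat2a, and Ddah2, Padi4 and Padi6 lie high on both. Padi6 passed the filter on low values only through its naïve libraries.

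Across the 12 libraries, the genes whose log2 values were most like those of Prmt2 were B3gnt7, Enpp3 and Cacng7 (Pearson r = 0.99 for each, n = 12 libraries). Those most like Prmt7 were Rcn3 (r = 0.97), Aga (0.97) and Echs1 (0.96). These correlations are descriptions, and the libraries share media and rescue lines. B3gnt7 had medium differences of -1.71 and -1.56, and Aga of 0.98 and 0.86, in the WT and the mutant rescue.

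The markers of other cell types were given beside the medium comparison. The summed normalised reads of 6 ES cell markers were 36605 to 48996 in all libraries, but 3 of them, Utf1 (-2.18 and -2.25), Sall4 (-1.19 and -1.18) and Zfp42 (-0.94 and -1.29), were lower in naïve ESCs of the WT and the mutant rescue. Those of 8 naïve markers were 15400 to 23773 in naïve and 9275 to 15667 in primed libraries, with 3 genes higher and Nr0b1 lower (-0.78 and -0.85) in naïve ESCs of both rescues. Those of 7 primed markers were 1387 to 3430 in naïve and 8461 to 14275 in primed libraries, and Dnmt3l, a cofactor of de novo DNA methylation, differed by -5.18 and -5.17, while Lef1 of the same list was higher in naïve ESCs (1.47 and 0.86). Those of 6 trophoblast markers were 1074 to 1521 in naïve and 1451 to 2369 in primed libraries, with Gata3 and Elf5 at 0 reads in all 6 naïve libraries and Cdx2 in 4 of them. Those of 8 primitive endoderm markers were 310 to 769 with overlapping groups. Single genes of that list went both ways, with Sox7 at 0 reads in 5 of 6 naïve libraries and Foxa2 in 5 of 6 primed ones. Dab2 was lower in naïve ESCs (-1.47 and -0.85), where its means of 4.26 and 4.44 were less than 1 above the lowest value, 3.81. It passed the filter on low values only through its primed libraries (means 5.73 and 5.29), so its calls are given as description. The summed normalised reads of 6 fibroblast markers were 33.0 to 90.5 in naïve and 13.2 to 19.4 in primed libraries, with Col1a2, Col3a1 and Postn at 0 in all libraries. Their part in the medium differences was not tested.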

How the data were processed

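Poly(A) RNA from 12 libraries of Tet2 KO ESCs (4 groups of 3, grouped by their labels) was sequenced from non-directional libraries. The authors trimmed reads with Trim Galore 0.3.3, aligned them to mm9 with TopHat2 2.0.9, placing multi-mapping reads at random, and deposited log2-scale values made by the variance-stabilising transformation of DESeq2. The counting tool and annotation are not given in the sources used here. Inverting the transformation returned whole reads, which gave normalised reads, depth and a voom fit.

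Genes with a mean at least 1 above the lowest value (that of 0 reads) were fitted in limma 3.58.1 (R 4.3.3) as 4 groups of 1 model, with a variance trend and Benjamini-Hochberg adjustment over 14185 genes. The fit was checked on simulated counts. It did not reach the first pass mark, set for calling genes made to differ, and other checks then replaced that mark. More of those genes were missed than called, and the missed ones had few reads or much spread. An uncalled member with few reads may therefore still differ between the rescues. Gene models and lengths were from GENCODE on mm9. Python 3.11.15, numpy 2.4.6, pandas 2.3.3, scipy 1.17.1 and matplotlib 3.10.9 were used for tables, exact tests and plots. The members and lists were chosen with earlier results of these data known. All members are named, with at most 3 list genes a direction that were called in both rescues, and the 3 genes most like Prmt2 and Prmt7. 1 list gene under that rule is not reported here.

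Numbers pair libraries where every same-numbered pair correlated above 0.1. This held between rescues in naïve ESCs (0.59, 0.30 and 0.39), from the data, and not in primed ESCs (-0.07 to 0.19) or between media (-0.15 to 0.22). The alternatives were other filters, no trend, centring, quantile normalization, voom, a replicate block, 6 libraries alone, a stricter threshold, the longest transcript and each library left out. Leaving out the 4 libraries numbered 3 was added after seeing the data. Repeat values, normalised separately, were not used here.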

Additional observations from a re-analysis of the deposited data

How the results depend on the processing

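The number of members called between media was 5 in the WT rescue and 7 in the mutant rescue. Leaving out 1 library gave 4 to 5 and 5 to 8, and the 8 came without mutant primed replicate 3, when Prmt5 passed. A stricter filter gave 3 in the WT rescue, because it left Prmt2 and Prmt8 untested. With a replicate block, 4 and 7 members passed between media and 0 between rescues, including naïve ESCs, where the numbers pair, and the block changed no other member call than that of Prmt6 in the WT rescue. Of the alternative values of single members, 645 of 673 kept direction and side of the threshold, 12 changed sign, 13 lost a call and 3 gained one. Other filters, no trend, the block and 6 libraries alone leave the difference itself unchanged, so its direction could not change there. Members uncalled in the main fit had no call to lose. The 645 are therefore not a measure of robustness. Prmt6 in the WT rescue and Prmt1 in the mutant rescue passed in 10 of 16 alternatives each (adjusted p 0.0134 to 0.196 and 0.00142 to 0.164). The block gave Prmt6 an adjusted p of 0.0521 and no filter gave 0.0527. Quantile normalization gave Prmt1 in the WT rescue an adjusted p of 0.0478.

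The sign changes concern uncalled differences near 0. Prmt3 between media in the mutant rescue was 0.0121 with quantile normalization, 0.0181 without the libraries numbered 3, and -0.11 to 0.0103 with 1 library left out. Carm1 between rescues in naïve ESCs was 0.16 without those libraries and -0.10 to 0.12 with 1 left out, and Jmjd6 there was -0.0149 to 0.28. In primed ESCs, Prmt5 was -0.0501 and -0.0752 to 0.16, Jmjd6 -0.11 and -0.11 to 0.16, and Prmt8 -0.29 to 0.0564 with 1 left out. The cause was not tested.

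Over all genes, 14 were called between rescues in naïve and 36 in primed ESCs. The numbers were 36 and 209 with the block, 5 and 23 with the stricter filter, 9 and 18 with 6 libraries alone, 9 and 35 with no filter, and 5 to 14 and 12 to 82 with 1 library left out, 82 without mutant primed replicate 3. Depth limits Prmt8 most.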
